A study of Mus musculus with 6 samples.

Results

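Epithelial cells of the kidney tubule are held together by 3 kinds of junction, and 44 genes that encode their proteins were followed from day 0 to day 21 of hyperuricemia-related chronic kidney disease (CKD). They were taken from the 55450 genes of the count table by gene symbol, from a list that was drawn up with earlier results of these data known, as 18 claudins, 10 further tight junction genes, 5 cadherins, 4 catenins, 6 desmosomal genes and Epcam. Kidney tissue came from male C57BL/6J wild type mice bought at 7 weeks of age and kept for 1 week before the experiment. The 3 day-0 mice were the controls and are labelled as given 20% PEG. The 3 day-21 mice had received 0.16 g/kg of adenine mixed with 2.4 g/kg of potassium oxonate by gavage once a day for 21 days, and the sources used here do not say whether this mixture held PEG. Potassium oxonate blocks the enzyme that breaks down uric acid in mice, and adenine is a purine that can crystallize in the tubule as its oxidation product, so the model joins a raised uric acid level with injury by adenine. The comparison addresses how the injured kidney differs from the control kidney in its junction genes.

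Tight junctions seal the space between neighboring cells at their apical side. Claudins form the strands of that seal, and each nephron segment carries its own claudins, some of which act as pores for ions or water and others as barriers. Below the tight junction, cadherins bind cell to cell in the adherens junction and are linked to actin by catenins, while desmosomes tie cells to the keratin network. In a whole kidney, fewer cells of a type and less RNA per cell cannot be told apart, and this holds for every change given here.

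Total counts lay between 10963849 and 14333311 per mouse, so that 3 counts, taken as the detection floor, corresponded to between 0.179 and 0.309 CPM (counts relative to library size, scaled by TMM normalization). Such floors cover counting error only. The TMM factors were between 0.852 and 0.886 on day 0 and between 1.12 and 1.17 on day 21, and mitochondrially encoded genes took between 9.39% and 9.86% of the counts on day 0 and between 3.82% and 4.42% on day 21. Both measures thus separated the days completely. Their part in the results was not tested beyond the other scalings given here and a fit without the mitochondrially encoded genes. Of the 44 genes, 40 passed the filter on low counts and were tested. Claudin genes Cldn9, Cldn11 and Cldn18 and the desmosomal gene Pkp1 did not pass. A gene was called a DEG where its fold change exceeded 1.5 and its adjusted p was below 0.05 in the quasi-likelihood test of edgeR, adjusted by Benjamini-Hochberg over all 16592 genes tested. With 3 mice in each group, an exact permutation test (two-sided throughout) has 0.1 as its lowest possible p, which it gave wherever the groups did not overlap.

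On day 21, 16 of the 40 tested junction genes were upregulated DEGs (40%), where 19.6% of all genes tested were upregulated. Another 4 were downregulated (10%), against 15.5% of all genes, and 20 were not called. In either direction the share was 50%, with 35.1% over all genes. The median log2 fold change of the 40 genes was 0.27, and that of all genes tested was 0.03. Non-overlapping groups were found for 26 of the 40 tested (65%), against 57.1% of all genes. They were found for all 20 called genes, as for 98.2% of all called genes. The scarce Cldn14 and Cldn23 passed the filter through the day-21 mice alone, where they are high. At a mean of at least 50 counts, which leaves both out, 14 of 38 junction genes were called higher and 3 lower, with 19.3% and 16.1% of all genes. Among the claudins 9 of 15 tested rose and 3 fell, and among the other 25 genes 7 rose and 1 fell, a difference that was not tested. When the libraries were scaled by their total counts alone, the median of all genes moved to 0.42, 24 junction genes were called higher and 0 lower, and the median of the junction genes stood at 0.66, which is 0.24 above that of all genes (0.23 with TMM). Of all called genes, 81.7% were then higher, against 55.8% with TMM.

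**Figure D1:**
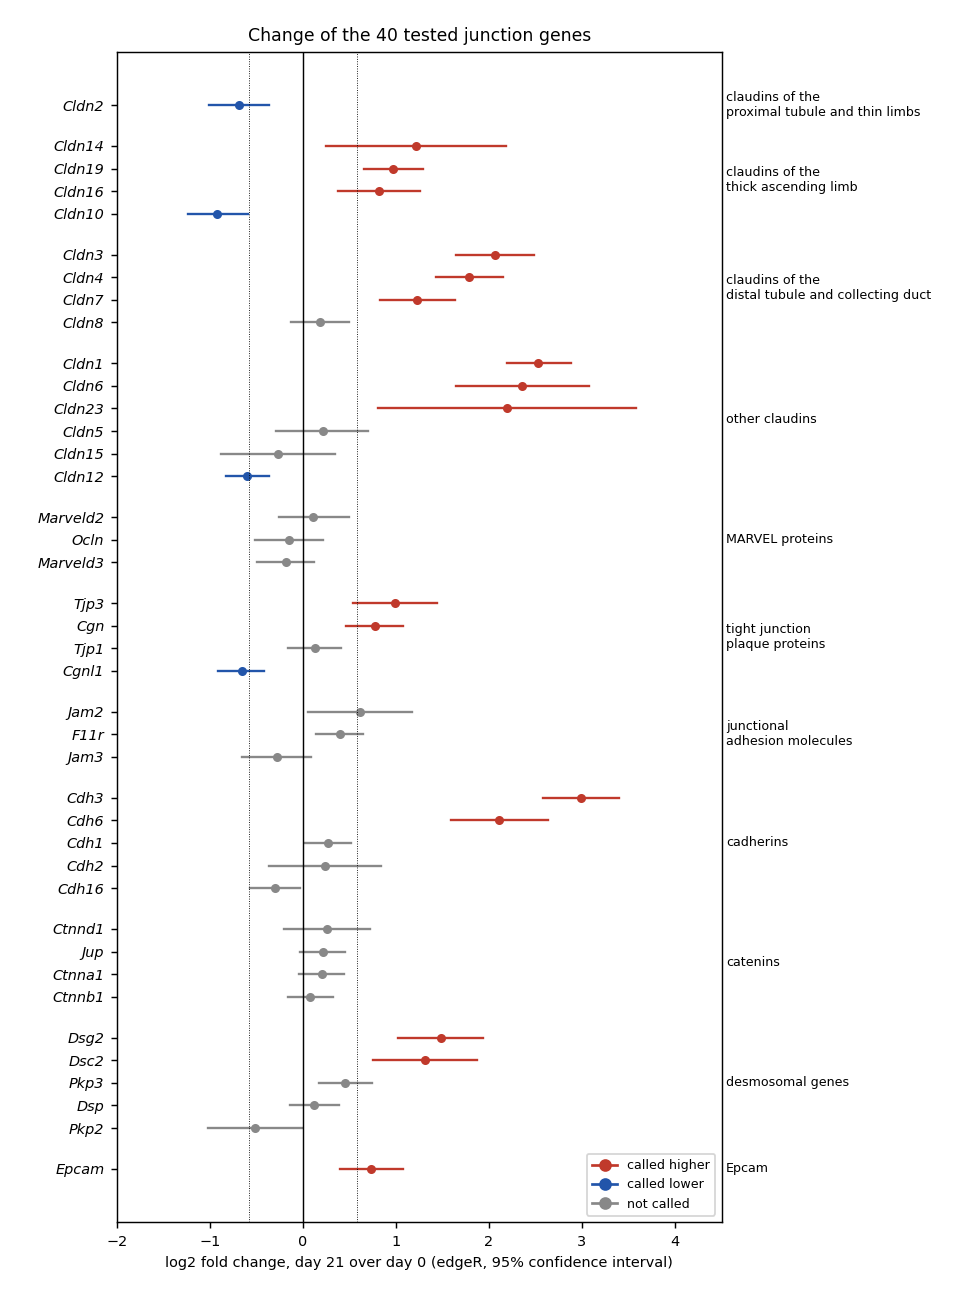
Log2 fold change of the 40 tested junction genes between day 21 and day 0 (x axis), with 95% confidence intervals as bars and genes grouped by role; dotted lines mark a fold of 1.5. Claudin, cadherin and desmosomal genes are spread from -0.92 for Cldn10 to 2.99 for Cdh3, while the catenins and MARVEL genes lie within 0.26 of zero.

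Cldn2 encodes the pore for cations and water of the proximal tubule and was the claudin with the highest level per kilobase of exon on both days. In GRCm38 it occupies bases 139800828 to 139811386 of the X chromosome. Its normalized count was 870, 855 and 632 CPM in day-0 mice and 531, 449 and 479 CPM in day-21 mice. Every day-21 mouse stood below every day-0 mouse. The mean went from 786 ± 133 to 486 ± 41.1 CPM (SD, n = 3 mice each), and the log2 change was -0.69 (SE 0.14, edgeR adjusted p = 0.0029, where SE is the standard error). With scaling by total counts alone it was -0.30 and Cldn2 was not called. All 8 proximal tubule markers on a fixed list fell beside it, among them Lrp2 (megalin) with a log2 fold change of -2.37 and the phosphate transporter gene Slc34a1 with -2.47. Their summed level was between 14300 and 15700 CPM on day 0 and between 3430 and 4430 CPM on day 21, and none of them was at 0.

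The thick ascending limb reabsorbs calcium and magnesium between its cells, through a channel that needs Cldn16 and Cldn19 and is restrained by Cldn14. Cldn16 and Cldn19 were upregulated on day 21, and Cldn14 was called higher from few counts. Cldn19 had 26.5, 37.1 and 28.2 CPM on day 0 and 60.6, 57.4 and 62.8 CPM on day 21. All day-21 mice were above all day-0 mice, and the log2 change was 0.97 (SE 0.14, edgeR adjusted p = 3.0e-04). Cldn16 stood at 9.73, 9.48 and 6.70 CPM on day 0 and at 12.8, 16.8 and 16.2 CPM on day 21, again without overlap. Its log2 change was 0.82 (SE 0.20, edgeR adjusted p = 0.0066). Cldn14 was scarce, with 22, 20 and 17 counts on day 21 against 5, 6 and 6 before, and it passed the filter through the day-21 mice. Its log2 fold change of 1.22 (SE 0.43, edgeR adjusted p = 0.042) was no longer called when any 1 of the 6 mice was left out, with the adjusted p then between 0.076 and 0.15. The call was also lost with a replicate block (edgeR adjusted p = 0.091), with DESeq2 (adjusted p = 0.13), with limma-voom (adjusted p = 0.065) and without a filter (edgeR adjusted p = 0.14).

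Cldn10 moved in the opposite direction. This gene gives rise to an anion-selective form in the proximal tubule and a cation-selective form in the thick ascending limb, and counts per gene do not tell the forms apart. It had 157, 199 and 227 CPM before and 113, 93.2 and 103 CPM after the 21 days. The groups were apart, with a log2 change of -0.92 (SE 0.15, edgeR adjusted p = 5.7e-04), and -0.53 without a call when scaled by total counts alone. Of the 3 thick ascending limb markers, the salt transporter gene Slc12a1 fell by 1.65 and the potassium channel gene Kcnj1 by 0.85 on the log2 scale. Umod (uromodulin) had a log2 fold change of -0.45 and was not called. The markers summed to between 5550 and 6890 CPM on day 0 and to between 3640 and 4130 CPM on day 21, and none was at 0.

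Cldn3, Cldn4, Cldn7 and Cldn8 are barrier or chloride-handling claudins of the distal tubule and collecting duct, and 3 of the 4 were upregulated. Cldn3 and Cldn4 are neighbors on chromosome 5 of GRCm38, on opposite strands and 39279 bases apart with no protein-coding gene between them. Cldn4 had 60.5, 41.2 and 51.0 CPM on day 0 and 148, 196 and 184 CPM on day 21, so that the lowest day-21 mouse was far above the highest day-0 mouse. Its mean rose from 50.9 ± 9.63 to 176 ± 24.9 CPM (SD, n = 3 each), a log2 change of 1.79 (SE 0.16, edgeR adjusted p = 1.6e-05). Cldn3 went from 11.2, 13.3 and 10.5 CPM to 37.7, 61.2 and 47.7 CPM. Its log2 change was 2.06 (SE 0.19, edgeR adjusted p = 1.8e-05), a 4.17-fold rise. In Cldn3, 3.2% of the exon bases lie in exons of Wbscr25 on the other strand, a gene with between 3 and 57 counts per mouse.

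Cldn7 showed the same separation of groups with a smaller change, from 28.5, 30.6 and 21.1 CPM to 52.8, 77.4 and 58.4 CPM. The log2 change was 1.23 (SE 0.18, edgeR adjusted p = 3.2e-04). Cldn8, a partner of Cldn4 in the collecting duct, had 70.4, 97.6 and 97.5 CPM on day 0 and 94.7, 108 and 99.2 CPM on day 21. Its groups overlapped, and its log2 fold change of 0.18 had a 95% confidence interval from -0.13 to 0.49, which excludes a fold of 1.5 under TMM scaling (with total counts alone the change was 0.58). Of the 6 collecting duct principal cell markers, the water channel genes Aqp2 (-1.17), Aqp3 (-1.59) and Aqp4 (-2.62) fell in log2 fold change. The other 3 were not called, with -0.31 for Fxyd4 and changes in the opposite direction for the sodium channel subunit genes Scnn1g (0.23) and Scnn1b (0.48, edgeR adjusted p = 0.029), of which Scnn1b had every day-21 mouse above every day-0 mouse. The sum of the 6 was between 541 and 684 CPM on day 0 and between 309 and 347 CPM on day 21, and none was at 0.

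**Figure D2:**
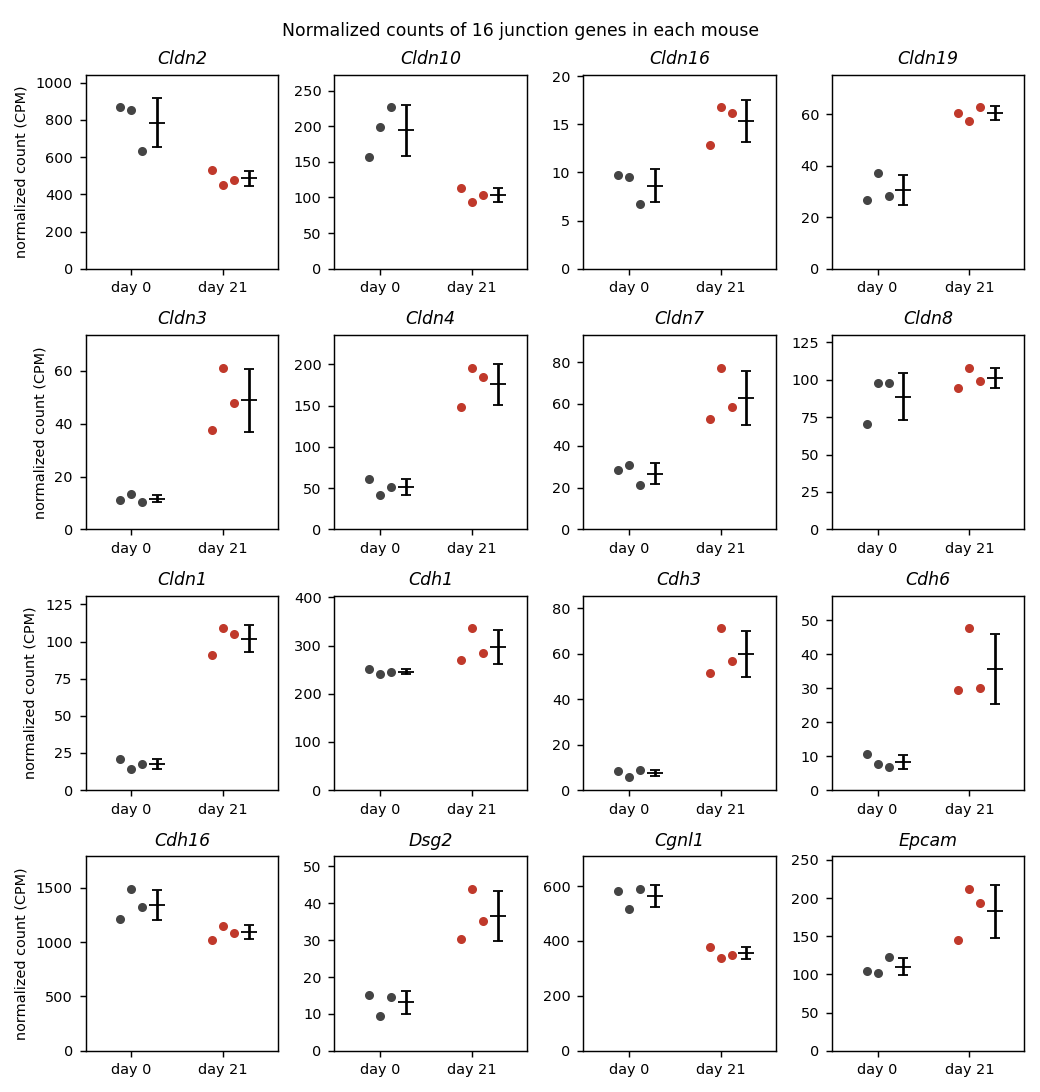
Normalized counts (CPM, y axis from 0) of 16 junction genes in each of the 3 day-0 mice (grey) and 3 day-21 mice (red), with the mean and SD beside the points. With the TMM scaling used here, groups are apart in all panels but that of Cldn8, and only in Cldn2, Cldn10, Cdh16 and Cgnl1 do the day-21 mice lie below.

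Set against the summed markers of their segment, the claudins had every day-21 mouse above every day-0 mouse, except Cldn10 and Cldn5, whose groups overlapped. These ratios were chosen after the values were seen. Cldn3, Cldn4, Cldn7 and Cldn8 were set against collecting duct principal cell markers alone. Their ratios to distal convoluted tubule and intercalated cell markers were not taken. For each 1000 CPM of proximal tubule markers there were 60.9, 54.4 and 42.2 CPM of Cldn2 on day 0 and 120, 131 and 117 CPM on day 21. Thus Cldn2 fell less than the markers of its segment, and the ratio was 2.33 times as high on day 21 (p = 0.1 by exact permutation). The ratios to their markers rose 2.73 times for Cldn16, 3.10 times for Cldn19, 7.57 times for Cldn3, 6.36 times for Cldn4, 4.24 times for Cldn7 and 2.10 times for Cldn8, each without overlap of the groups. The size of these ratios depended on the marker, as an alternative added after the data were seen showed. Against single markers it was between 1.6 (Slc5a12) and 3.39 (Slc34a1) for Cldn2, and between 2.37 and 5.54 for Cldn16 and 2.71 and 6.20 for Cldn19 (Umod and Slc12a1). Against Scnn1b it was 2.90 for Cldn3, 2.37 for Cldn4 and 1.66 for Cldn7, and against Aqp4 it was 30.3, 24.4 and 16.9. For Cldn8 the direction depended on the marker as well, with 0.774 against Scnn1b, 7.86 against Aqp4 and a ratio above 1 for 4 of 6 markers. The same held for Cldn10, with 0.725 against Umod and 1.68 against Slc12a1. For Cldn10 against thick ascending limb markers the groups overlapped, with means of 31.5 ± 5.04 and 26.2 ± 4.27 CPM per 1000 (SD, n = 3 each, two-sided exact permutation test, p = 0.3). Its ratio to proximal tubule markers was not taken, though it has a form there. The fold of Cldn10 itself was 0.529, and that of the proximal tubule marker sum was 0.266. For Cldn5, which seals the junctions of endothelial cells, the ratio to 6 endothelial markers was 31.3 ± 9.43 on day 0 and 51.9 ± 20.4 on day 21, with overlap (two-sided exact permutation test, p = 0.2). Its direction depended on the marker too, with 0.834 against Egfl7, 3.07 against Kdr and a ratio above 1 for 5 of 6 markers. Whether the loss of segment markers has a part in the claudin changes was not tested.

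**Figure D3:**
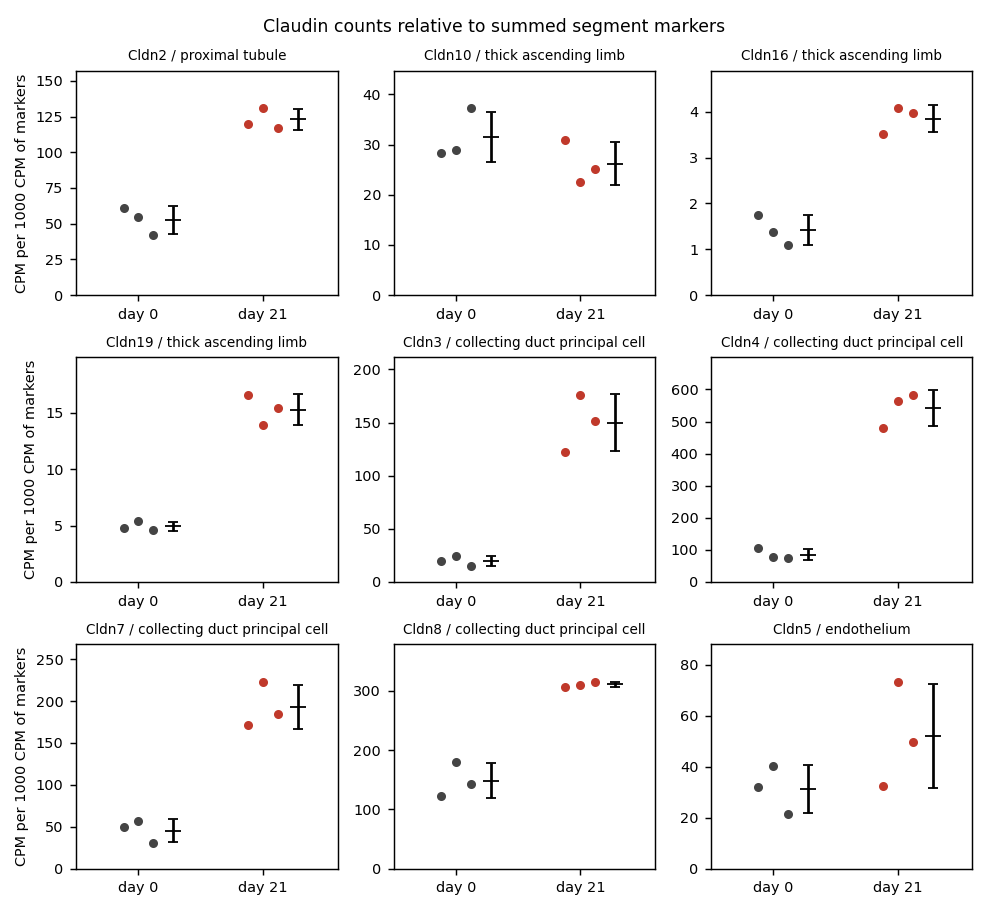
CPM of a claudin for each 1000 CPM of the summed markers named above its panel (y axis from 0) in the 3 day-0 mice (grey) and 3 day-21 mice (red), with mean and SD. For Cldn3, Cldn4, Cldn7 and Cldn8 these are collecting duct principal cell markers alone. Day-21 mice lie above day-0 mice in 7 of 9 panels, and overlap them for Cldn10 and Cldn5.

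Among the 9 other claudins, of which 6 were tested, Cldn1 and Cldn6 rose, Cldn12 fell and Cldn23 was called higher from few counts. Cldn1, a barrier claudin that is known in the kidney from the parietal cells of Bowman's capsule, had 21.1, 14.2 and 17.6 CPM on day 0 and 91.3, 109 and 105 CPM on day 21. It was 5.79-fold higher, with a log2 change of 2.53 (SE 0.15, edgeR adjusted p = 2.1e-06). The coefficient of variation between mice was 19.5% on day 0 and 9.04% on day 21. Cldn6, a claudin of embryonic epithelia, went from 1.91, 1.40 and 1.24 CPM to 5.51, 10.1 and 7.72 CPM. Its log2 change was 2.36 (SE 0.32, edgeR adjusted p = 2.1e-04) with no overlap between the days. Its neighbor Cldn9, 137 bases away on chromosome 17, had at most 5 counts in any mouse.

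Cldn23 had 10, 25 and 15 counts on day 21, against 1, 2 and 4 before, and it passed the filter through the day-21 mice. The log2 change was 2.19 (SE 0.62, edgeR adjusted p = 0.015), and it was no longer called without day-0 replicate 1, day-0 replicate 2 or day-21 replicate 2, where the adjusted p was 0.058, 0.065 and 0.070. Cldn12, which takes part in paracellular calcium transport, had 104, 96.8 and 94.8 CPM on day 0 and 67.9, 60.5 and 66.5 CPM on day 21. All its day-21 mice were lower, but the change stood at the edge of the fold threshold. The log2 change was -0.60 (SE 0.10, edgeR adjusted p = 9.2e-04), and it was -0.58 without day-0 replicate 1 and -0.55 without day-21 replicate 2, each short of a fold of 1.5. It was short of that fold with a stricter count filter and 2 of the other scalings as well.

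The endothelial Cldn5 was not called (log2 fold change 0.21, 95% confidence interval from -0.29 to 0.70), and neither was Cldn15, a sodium pore best known from the gut (-0.27, from -0.88 to 0.34). With total counts alone Cldn5 had 0.60 and was called higher. Cldn11, known from myelin and the testis, varied among the day-0 mice (2, 17 and 53 counts) and was at 3, 2 and 4 counts by day 21. Cldn18, a claudin of stomach and lung, was counted 0, 10 and 6 times on day 0 and at most 1 time on day 21. For these scarce claudins a difference was not testable with the filter used.

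Per kilobase of exon, the order of the claudins changed between the days. On day 0 the order was led by Cldn2 at 236 ± 40.1 CPM per kilobase (SD, n = 3), Cldn10 at 75.0 ± 13.6, Cldn8 at 37.6 ± 6.65 and Cldn4 at 28.0 ± 5.30. The mice with Cldn8 and Cldn4 overlapped in level, and so did those with Cldn4 and Cldn12, the next in order. On day 21 Cldn2 stood at 146 ± 12.4 and Cldn4 came second at 96.8 ± 13.7 CPM per kilobase. Below them Cldn8, Cldn10, Cldn3 and Cldn7 formed a run from 42.7 to 32.3 CPM per kilobase in which neighboring genes overlapped.

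Under TMM scaling the summed level of the 18 claudins differed little, at 461 ± 31.5 CPM per kilobase on day 0 and 483 ± 18.7 on day 21 (SD, n = 3 each, two-sided exact permutation test, p = 0.5). This sum depends on the scaling, since every TMM factor was higher on day 21 than on day 0. With total counts alone the day-21 sums would stand higher relative to day 0. The makeup of the family differed between the days. Cldn2 made up 55.6%, 52.9% and 44.7% of the claudin reads per kilobase at day 0 and 34.5%, 27.0% and 29.7% at day 21. Cldn4 went from 7.07%, 4.67% and 6.60% to 17.6%, 21.6% and 20.8%. Such shares are taken within a mouse and do not depend on the scaling of the libraries. Cldn10 fell from 16.4 ± 3.89% to 8.25 ± 1.10% of the family, Cldn3 rose from 2.01 ± 0.142% to 8 ± 1.64%, Cldn7 from 2.96 ± 0.362% to 6.66 ± 1.13% and Cldn1 from 0.794 ± 0.169% to 4.35 ± 0.237% (SD, n = 3 each). The groups did not overlap for any of these 6 claudins (two-sided exact permutation test, p = 0.1 each), whereas Cldn8 had 8.20 ± 1.71% and 8.84 ± 0.275% with overlap (two-sided exact permutation test, p = 0.7).

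**Figure D4:**
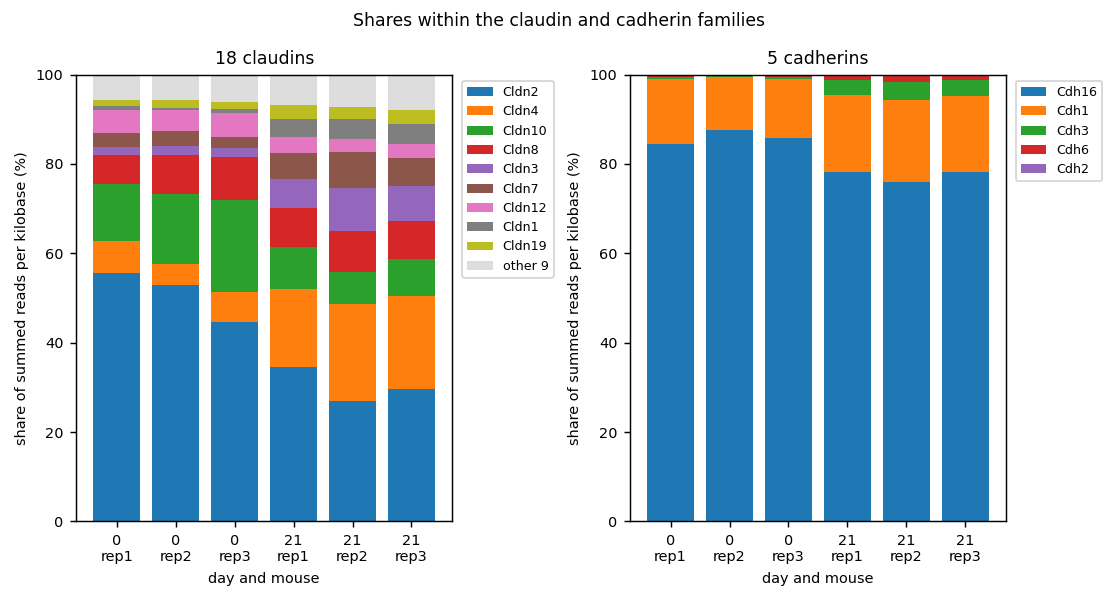
Share of each gene in the summed reads per kilobase of exon of the 18 claudins (left) and 5 cadherins (right), in percent, 1 bar for each mouse. Cldn2 shrinks from between 44.7% and 55.6% on day 0 to between 27.0% and 34.5% on day 21 while Cldn4 grows, and Cdh16 stays the main cadherin in all 6 mice.

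Occludin, the tricellular protein Marveld2 (tricellulin) and the related MARVEL protein Marveld3 had 0 of 3 genes called. Ocln, with the highest level per kilobase of the 3, had 55.7, 35.8 and 39.4 CPM on day 0 and 43.6, 37.1 and 37.4 CPM on day 21. The groups overlapped, and the log2 fold changes of the 3 genes lay between -0.18 and 0.11. The 95% confidence intervals, from -0.52 to 0.22 for Ocln, from -0.26 to 0.49 for Marveld2 and from -0.49 to 0.12 for Marveld3, all exclude a fold of 1.5 under TMM scaling.

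Of the 4 plaque proteins, which tie the strands to actin, Tjp3 (ZO-3) and Cgn (cingulin) rose, Cgnl1 (paracingulin) fell and Tjp1 (ZO-1) was not called. Tjp3 had 10.9, 14.9 and 16.6 CPM on day 0 and 25.5, 35.4 and 23.6 CPM on day 21. The day-21 mice were all higher, with a log2 change of 0.99 (SE 0.20, edgeR adjusted p = 0.0026). Cgn stood at 26.2, 24.9 and 27.0 CPM against 40.7, 52.2 and 39.7 CPM, a log2 change of 0.77 (SE 0.14, edgeR adjusted p = 0.0012). Cgnl1, the plaque gene with the highest level per kilobase, went the other way from its relative Cgn. It fell from 581, 518 and 590 CPM to 379, 339 and 348 CPM without overlap, a log2 change of -0.66 (SE 0.11, edgeR adjusted p = 7.6e-04). It was not called with upper-quartile scaling (-0.58) or with total counts alone (-0.28). For Tjp1 the log2 fold change was 0.13, with a 95% confidence interval from -0.16 to 0.41.

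The junctional adhesion molecules, which belong to the immunoglobulin superfamily, had 0 of 3 genes called. F11r (JAM-A), the main one of epithelia, had 116, 115 and 94.3 CPM on day 0 and 137, 149 and 143 CPM on day 21. All day-21 mice were higher and the adjusted p was 0.017 from edgeR's test, but the log2 fold change of 0.40 was short of the fold of 1.5. With total counts alone F11r had 0.79 and was called higher. Jam2 (JAM-B) had overlapping groups, with 10.6, 14.4 and 17.8 CPM against 20.4, 15.6 and 29.5 CPM and a log2 fold change of 0.61 (edgeR adjusted p = 0.072). It was called higher without day-0 replicate 3 (0.77), without day-21 replicate 2 (0.81) and with a replicate block (0.59, edgeR adjusted p = 0.026), as well as with upper-quartile scaling (0.69), with total counts alone (1.00) and without a filter (0.61, edgeR adjusted p = 0.0028). Jam3 (JAM-C) had a log2 fold change of -0.28 (95% confidence interval from -0.66 to 0.09). In Jam3, 36.2% of the exon bases lie in Gm48796 on the other strand, which had between 181 and 310 counts per mouse, and without knowledge of the strand setting the reads of this pair cannot be told apart.

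The cadherin family held the gene with the largest change of the 40 tested. Cdh3 (P-cadherin), on chromosome 8 of GRCm38 from 106510891 to 106557297, had 8.22, 5.93 and 8.66 CPM on day 0 and 51.5, 71.3 and 57.0 CPM on day 21. It rose 7.93-fold, with a log2 change of 2.99 (SE 0.18, edgeR adjusted p = 2.1e-06). On the same chromosome lies Cdh1 (E-cadherin), the classical cadherin of mature epithelia, which had 251, 242 and 246 CPM on day 0 and 270, 336 and 285 CPM on day 21. The groups of Cdh1 did not overlap either, yet the log2 fold change was 0.27 (95% confidence interval from 0.02 to 0.52, edgeR adjusted p = 0.076) and it was not called. The interval excludes a fold of 1.5 under TMM scaling, whereas with total counts alone Cdh1 had 0.66 and was called higher.

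Cdh6 (K-cadherin), known from the developing nephron, went from 10.5, 7.67 and 6.70 CPM to 29.6, 47.7 and 30.2 CPM. All day-21 mice were higher, and the log2 change was 2.11 (SE 0.23, edgeR adjusted p = 5.4e-05). Cdh16 (kidney-specific cadherin) had the highest CPM of all 44 genes, at 1210, 1490 and 1320 CPM on day 0 and 1020, 1150 and 1080 CPM on day 21. With TMM scaling its day-21 mice were lower, but the log2 fold change of -0.30 (95% confidence interval from -0.57 to -0.03, edgeR adjusted p = 0.064) was not called. The direction depended on the scaling, as the change of Cdh16 was 0.09 with total counts alone (edgeR adjusted p = 0.52). Cdh2 (N-cadherin) was scarce and not called, at 7.86 ± 3.04 and 9.18 ± 0.176 CPM (SD, n = 3 each).

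Per kilobase, Cdh16 made up 85.9 ± 1.59% of the reads of the 5 cadherins on day 0 and 77.4 ± 1.28% on day 21 (SD, n = 3 each). The share of Cdh1 went from 13.2 ± 1.35% to 17.5 ± 0.734%, that of Cdh3 from 0.428 ± 0.109% to 3.68 ± 0.348% and that of Cdh6 from 0.227 ± 0.0703% to 1.06 ± 0.225%. None of these 4 had overlapping groups (two-sided exact permutation test, p = 0.1 each). Under TMM scaling the cadherins summed to 411 ± 34.8 CPM per kilobase on day 0 and 370 ± 27.9 on day 21 (SD, n = 3 each, two-sided exact permutation test, p = 0.2). Like that of the claudins, this sum depends on the scaling, so no fall of the family can be read from it.

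The catenins carry the pull of cadherins to the cytoskeleton, and 0 of 4 were called. Ctnnb1 (beta-catenin), the one with the highest level per kilobase, had 662, 607 and 644 CPM on day 0 and 707, 632 and 687 CPM on day 21. These groups overlapped, and the log2 fold change was 0.08 with a 95% confidence interval from -0.16 to 0.32. The groups of Ctnna1 and Jup did not overlap. Ctnna1 (alpha-catenin) had 0.20, from -0.04 to 0.44, and Jup (plakoglobin), which serves adherens junctions and desmosomes, had 0.21, from -0.03 to 0.45. Ctnnd1 (p120-catenin) had 0.26, from -0.20 to 0.72. With scaling by total counts alone 3 of the 4 were called higher, namely Ctnna1 (0.59), Jup (0.60) and Ctnnd1 (0.66). Reads of Ctnnd1 are uncertain, since 61.2% of its exon bases also belong to Gm28635 on the same strand, a gene listed with 0 counts in all 6 mice. In Ctnnb1, 14.6% of the exon bases lie in genes of the other strand, mainly Ulk4, which had between 1977 and 3872 counts per mouse.

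In the desmosome, the adhesive cadherins moved while the tested plaque genes did not pass the threshold with TMM scaling. Dsg2 (desmoglein-2) had 15.2, 9.40 and 14.7 CPM on day 0 and 30.4, 43.9 and 35.1 CPM on day 21, and its partner Dsc2 (desmocollin-2) had 2.61, 3.30 and 2.99 CPM against 6.22, 9.13 and 6.80 CPM. Neither had overlapping groups. The log2 change was 1.48 (SE 0.21, edgeR adjusted p = 2.4e-04) for Dsg2 and 1.31 (SE 0.25, edgeR adjusted p = 0.0019) for Dsc2. Dsp (desmoplakin), which anchors keratin filaments, had a log2 fold change of 0.12 (95% confidence interval from -0.14 to 0.39). The plaque gene Pkp3 (plakophilin-3) had 0.45, with an adjusted p of 0.015 from edgeR and a fold short of 1.5. Its groups did not overlap, and with total counts alone it had 0.85 and was called higher.

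Pkp2 (plakophilin-2), the desmosomal gene with the highest level per kilobase on day 0 (11.5 CPM per kilobase, but 8.06 on day 21, below Pkp3 at 9.54 and Dsp at 8.25), varied on day 0 with 88.9, 55.0 and 41.5 CPM and stood at 41.9, 43.8 and 44 CPM on day 21. The groups overlapped through day-0 replicate 3. The log2 change was -0.52 (SE 0.23, edgeR adjusted p = 0.087), and without that mouse it was -0.75 and called lower (edgeR adjusted p = 0.0066). Pkp1, a plakophilin of stratified epithelia, had at most 11 counts in any mouse.

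Epcam, an adhesion molecule of distal nephron and collecting duct cells that binds and stabilizes claudin-7, was upregulated. It had 105, 102 and 123 CPM on day 0 and 145, 212 and 193 CPM on day 21. The day-21 mice were all higher, with a log2 change of 0.73 (SE 0.15, edgeR adjusted p = 0.0027).

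Promoter windows of RefSeq on GRCm38.p6, from 250 bases before to 50 bases after a transcription start, were present for 28 of the 44 genes, as 41 windows. CAGGTG, the E-box letters that the repressors Snail and Zeb bind, occurred on either strand in 14 of the 41 windows (34.1%) and in 20.2% of all 32851 windows. TGACTCA, the AP-1 letters, occurred in 3 of 41 (7.32%) and in 5.20% of all windows. AACCGGTT and AACCNGGTT, which Grainyhead-like factors bind, and the HNF1 motif occurred in 0 of 41 windows, against 0.146%, 0.271% and 0.00913% of all. Windows of a gene can overlap, and an E-box of Ocln and an E-box of Marveld2 were each counted in more than a single window. By gene, the E-box was found in 7 of the 12 upregulated genes with a window, in 0 of 4 downregulated ones and in 4 of 10 that were not called. A share by gene over all genes was not computed, so no excess can be read from these counts. A match is a description of the letters and no evidence of binding. The bases before the start are shown for 3 upregulated genes that held at least 2 matches there, with the matches in capitals, which do not overlap one another. They were Cldn4 (chr5:134946935-134947184, minus strand) with AP-1 letters at 2 places and 1 E-box, Cldn7 (chr11:69965171-69965420, plus strand) with 2 E-boxes and Epcam (chr17:87635729-87635978, plus strand) with 2 E-boxes. Each sequence reads 5′ to 3′ on the strand of the gene and ends at the base before its start.
Cldn4: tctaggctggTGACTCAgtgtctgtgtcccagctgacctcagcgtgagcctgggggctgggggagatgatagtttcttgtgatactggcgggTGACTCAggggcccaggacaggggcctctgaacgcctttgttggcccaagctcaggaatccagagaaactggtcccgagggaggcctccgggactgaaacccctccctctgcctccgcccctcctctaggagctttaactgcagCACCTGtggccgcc
Cldn7: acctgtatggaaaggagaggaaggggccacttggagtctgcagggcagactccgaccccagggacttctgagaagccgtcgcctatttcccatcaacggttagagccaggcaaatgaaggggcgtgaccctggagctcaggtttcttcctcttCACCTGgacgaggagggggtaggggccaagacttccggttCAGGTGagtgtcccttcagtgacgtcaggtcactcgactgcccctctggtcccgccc
Epcam: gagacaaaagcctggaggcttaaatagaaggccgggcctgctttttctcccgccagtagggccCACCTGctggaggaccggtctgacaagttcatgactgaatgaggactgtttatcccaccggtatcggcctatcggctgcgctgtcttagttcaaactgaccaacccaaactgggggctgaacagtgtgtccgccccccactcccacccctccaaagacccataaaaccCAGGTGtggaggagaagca

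Further genes of the same junctions were read from fixed lists. Among 25 other tight junction and polarity genes (Cldn25 had no row), 20 were tested, 2 rose, 4 fell and the median log2 fold change was -0.12. The rises were Ybx3, a DNA-binding partner of ZO-1, with 0.69 and Arhgef2, whose protein binds cingulin at the junction, with 0.67. The largest falls were those of the polarity kinase gene Prkcz, from 113 ± 4.58 to 50.3 ± 0.896 CPM (SD, n = 3 each, log2 fold change -1.17, edgeR adjusted p = 1.1e-05), and of Ildr2, an angulin of tricellular contacts, with -1.13. Of 17 other adherens junction genes, 15 were tested, 5 were called higher and 0 lower, with a median of 0.12. They include Cdh17, named after its values were seen, which was counted 13, 37 and 30 times on day 21, against 0, 1 and 0 before, and so passed the filter through the day-21 mice alone. Cdh11, a cadherin of mesenchymal cells, rose by 2.91 and Nectin4 by 1.65 on the log2 scale. The 5 fibroblast markers beside Cdh11 all rose, with a sum between 175 and 271 CPM on day 0 and between 787 and 1290 CPM on day 21, and their part in the change of Cdh11 was not tested. Of 11 other desmosomal and plaque-linked genes, 4 were tested, with a median of 0.09. Periplakin gene Ppl rose (0.84) and plakophilin-4 gene Pkp4 fell (-0.86, and -0.47 without a call with total counts alone). The other 7, all desmogleins and desmocollins of stratified epithelia, were not tested.

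Of 15 genes for transcription and splicing factors that act on epithelial junction genes, 13 were tested, 6 were called higher and 1 lower, with a median of 0.59. Of the 6, Elf3 and Zeb2 kept the call under all 16 alternatives. Grhl2 lost it under 6, Snai1 under 3 that each left out a mouse, Ehf without day-0 replicate 2 and Snai2 without day-21 replicate 1. Elf3, an epithelial activator, had 22.0, 25.6 and 30.1 CPM on day 0 and 56.0, 79.5 and 70.5 CPM on day 21, a log2 change of 1.41 (SE 0.16, edgeR adjusted p = 6.8e-05). Snai2 (Slug), a repressor of E-cadherin, was low, with 1.3, 2.23 and 2.16 CPM against 7.21, 2.68 and 5.94 CPM, and had a log2 change of 1.46 (SE 0.41, edgeR adjusted p = 0.014). Without day-21 replicate 1 it was 1.18 and not called (edgeR adjusted p = 0.061). In the same day-21 mice the fibroblast markers summed to 1230, 787 and 1290 CPM, and their part in the change of Snai2 was not tested. Esrp2, a splicing factor of epithelial cells, fell from 57.7 ± 4.83 to 31.9 ± 1.57 CPM (SD, n = 3 each), a log2 fold change of -0.86 (edgeR adjusted p = 1.7e-04), and was not called with total counts alone (-0.46).

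Other cell types of the kidney moved with the days as well. All 6 macrophage markers and all 4 T cell markers rose, from sums between 131 and 169 CPM to between 675 and 809 CPM and from between 2.61 and 8.49 CPM to between 19.7 and 20.3 CPM. The 4 markers of injured tubule cells rose from sums between 23.5 and 60.9 CPM to between 1890 and 2300 CPM. Of 6 endothelial markers 1 fell, with sums between 369 and 412 CPM on day 0 and between 207 and 332 CPM on day 21. Of 5 markers of the urothelium, an epithelium that also carries claudins, desmosomal proteins and P-cadherin, 0 were called higher and 1 was lower. Their sums lay between 4.21 and 21.0 CPM on day 0 and between 5.49 and 11.1 CPM on day 21. They were scarce and varied widely between mice, so that a rise could be missed. For Krt5 the 95% confidence interval of the log2 fold change went from -1.26 to 1.19. Of 3 distal convoluted tubule markers 2 fell (804 to 1380 against 489 to 655 CPM), of 4 intercalated cell markers 3 fell (176 to 292 against 82.4 to 103 CPM), and of 4 podocyte markers 3 fell (342 to 552 against 241 to 290 CPM). None of these markers was at 0 in every mouse, and their part in the junction gene changes was not tested.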

How the data were processed

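Kidney mRNA of 3 day-0 and 3 day-21 mice was sequenced by the authors as paired-end reads and aligned to a reference genome. The submitters' processing notes name TopHat and mm10, while the counting program and its strand setting are not given in the sources used here. The deposited values are raw counts, 1 column a mouse, which the authors had not normalized. All gene identifiers, versions included, were found in GENCODE mouse release M21 on GRCm38, which gave symbols, positions and exon lengths. Every column was mapped to its sample by its label.

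These counts went into edgeR 4.0.16 under R 4.3.3 (filterByExpr at min.count 10 and min.total.count 15, TMM scaling, quasi-likelihood test without a replicate block). The Benjamini-Hochberg adjustment ran over 16592 genes, and the DEG thresholds are those the study's methods state. Standard errors were computed as the log2 fold change divided by the root of F. CPM per kilobase used the union of annotated exons. Shares of a family were compared by a two-sided exact permutation test, and a pseudocount of 0.5 CPM was used for single genes. The 44 genes, their roles and the other gene lists were chosen with earlier results of these data known. Values in every mouse are given for called genes whose groups do not overlap and for the highest gene of each role. In the other junction lists the 2 largest rises and 2 largest falls with a mean of at least 50 counts are named. Nothing states that the 3 mice of a group differ in cage or litter, so p-values measure the spread between these mice.

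Simulated counts with 3-fold changes in 200 of 16245 genes gave 186 calls of them and 22 of unchanged genes with edgeR, 187 and 27 with DESeq2 1.42.0, and 181 and 20 with limma-voom (limma 3.58.1). In the mice 35.1% of genes were called, and called junction genes include smaller changes, such as 1.52-fold for Cldn12. The simulated recovery therefore does not carry over to the calls given here. No pair of mice was a duplicate (chi-square per gene from 6.78 to 23.6 within groups). Figures and sequence searches were made in Python 3.11.15. Protein sequences and claudin loop features were not analysed here.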

Additional observations from a re-analysis of the deposited data

How the results depend on the processing

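Of the 20 called junction genes, 14 kept their call and direction under all 16 alternative scalings, filters, tools, left-out mice and libraries without mitochondrial or the 20 highest genes. The other 6 were Cldn2, Cldn10, Cldn12, Cldn14, Cldn23 and Cgnl1, and no direction of a called gene reversed. Against 16 higher and 4 lower, upper-quartile scaling gave 2 lower with a median log2 fold change of 0.36, scaling by total counts alone gave 24 higher and 0 lower with a median of 0.66, and a stricter call (fold over 2, adjusted p below 0.01) gave 9 higher and 0 lower. The scaling shifts all genes, whose median was 0.03 with TMM, 0.12 with upper-quartile scaling and 0.42 with total counts alone. Without a filter 6 were lower, with Cldn11 and Cldn18 added. Leaving out each mouse gave 14 to 16 higher, 3 to 5 lower and medians of 0.21 to 0.35. Deviations of same-numbered mice of the days had correlations of -0.03, 0.17 and 0.10, and those of differently numbered mice lay between -0.19 and 0.13. With 3 mice in each group such values cannot decide whether the numbers pair the mice. With the replicate block 16 were higher and 4 lower, with Jam2 gained and Cldn14 lost. Shares without length correction, which favors long genes, moved the difference of Cldn4 from 13.9 to 10.2 and that of Cldn3 from 5.99 to 3.01 percentage points. The filter left out Cldn9, Cldn11, Cldn18 and Pkp1, and Cldn11 was tested and called lower in 3 of the fits that left out a mouse.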

Other observations

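Among the 16 upregulated junction genes, day-21 replicate 2 had the highest CPM of the 3 day-21 mice in 14, and day-21 replicate 1 the lowest in 12. Over all upregulated genes, replicate 2 was the highest in 45.5% and replicate 1 the lowest in 41.2%. In replicate 2 the fibroblast marker sum was the lowest of the 3 (787 CPM, against 1230 and 1290). Injured tubule (1890 CPM), proximal tubule (3430 CPM), endothelial (207 CPM) and urothelium sums (5.49 CPM) were the lowest as well. The macrophage sum was the highest (809 CPM). So were those of thick ascending limb (4130), distal convoluted tubule (655), collecting duct principal (347) and intercalated cells (103 CPM). Podocyte and T cell sums lay in between. The part of these cell types in the order of the mice was not tested. Over the 38 tested junction genes with a mean of at least 50 counts, the coefficient of variation between mice had a median of 17.9% on day 0 and 10.5% on day 21, with the highest values for Pkp2 on day 0 (39.5%) and Cldn15 on day 21 (36.4%).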
